A study of Mus musculus with 20 samples.

Results

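The immediate early response genes of mouse liver were described here as a group of 10 named genes, namely Fos, Fosb, Jun, Junb, Egr1, Atf3, Ier2, Dusp1, Myc and Klf6. The members were the rows of the expression table that carry one of these symbols, and all 10 were found among the 45306 genes listed. All 10 also passed the filter on low counts, which left 15616 genes for testing. Liver messenger RNA was sequenced from 20 C57BL/6 mice with 1 library per mouse, in 4 groups of 5 mice aged 5 weeks at the start. Control mice were wild type and were held at 24 °C. CE mice were wild type and were placed at 4 °C for 3 h per day over 3 weeks. Sirt2-/- mice carried a CRISPR-Cas9 knockout of Sirt2, made in fertilized eggs against a stretch of its exons, which encodes the NAD-dependent deacetylase that the study is about, and were held like the Control mice. Sirt2-/-/CE mice combined the knockout with the same cold schedule. Whether the knockout mice came from 1 founder is not given in the sources used here, nor are the hour at which each liver was taken and the time since the last cold session. The comparisons asked how the level of this group of genes differed between livers with and without Sirt2 and with and without repeated cold.

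Immediate early genes are transcribed within minutes of a signal and need no newly made protein for it. In the resting liver they are low, and they rise briefly after growth factors, stress hormones, injury, feeding or handling of the tissue. Their messengers decay quickly, so that a single liver sample reads the recent past of that animal. Fos, Fosb, Jun and Junb encode subunits of the dimeric transcription factor AP-1. Atf3 encodes a related leucine zipper protein of the stress response. Egr1 and Klf6 encode zinc finger transcription factors, Myc encodes a basic helix-loop-helix factor of cell growth, Ier2 encodes a small nuclear protein, and Dusp1 encodes the phosphatase that switches off MAP kinases and so closes the loop. In bulk tissue, fewer cells of a type and less RNA per cell cannot be told apart.

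Libraries held 35499796 to 53917339 counts, and the Control libraries were the deepest as a group (median 50975739). Sirt2 stood at 41.3 to 44.5 CPM (counts scaled to library size with the TMM factors of edgeR) in Control mice, 40.2 to 56.2 CPM in CE mice, 16.9 to 27.5 CPM in Sirt2-/- mice and 18.97 to 27.5 CPM in Sirt2-/-/CE mice, so that all 10 knockout livers lay below all 10 wild-type livers, with reads still counted on the gene. Its log2 fold change was -0.94 in Sirt2-/- against Control (SE 0.15, edgeR adjusted p = 0.0145), and -0.85 with the clock score described next as a covariate, where the call was lost (edgeR adjusted p = 0.159). The hepatocyte markers were the most abundant of the 11 marker lists examined, with summed levels of 37640 to 75670 FPKM. A score of circadian clock output genes ran from 4.61 to 6.64 in Control mice, and 12 of the 15 mice of the other groups lay below the lowest Control mouse. Control replicate 3 stood apart in the genes described here. It was the highest of the 20 mice for 7 of 10 members and above the median of the 20 for 10 of 10, whereas over all genes tested it was the highest for 9.28%. For the members, the medians and most of the named fold changes against Control are therefore also given without that mouse. Medians of the other gene lists and of the markers, and fits with the clock score, are given with all 20 mice.

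The promoters of 2 pairs of members are shown because those pairs varied together from mouse to mouse, as described further on. Promoter sequences were found in the RefSeq table of build GRCm38.p6 for 7 of 10 members, and not for Egr1, Ier2 and Myc. Each line holds up to 250 bases before the RefSeq start of the gene, 5′ to 3′ on the strand of the gene. The Dusp1 line has 203 bases and ends 48 bases before the start, because the bases after it overlap an exon in the annotation, while the other lines run up to the start. Capitals mark TGACNTCA, the 8 letters of a cyclic AMP response element (CRE) with 1 open position, or its half-site TGACG, on either strand; the full CRE, TGACGTCA, contains both.
Fos: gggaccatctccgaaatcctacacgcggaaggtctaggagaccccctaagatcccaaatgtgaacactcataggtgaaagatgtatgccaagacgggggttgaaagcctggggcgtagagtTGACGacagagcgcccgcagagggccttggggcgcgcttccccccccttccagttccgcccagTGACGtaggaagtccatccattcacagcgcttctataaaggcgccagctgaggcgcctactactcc
Dusp1: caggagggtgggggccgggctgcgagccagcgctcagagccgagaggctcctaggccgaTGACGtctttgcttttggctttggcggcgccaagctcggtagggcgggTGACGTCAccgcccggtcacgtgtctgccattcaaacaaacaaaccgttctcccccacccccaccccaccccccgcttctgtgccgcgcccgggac
Jun: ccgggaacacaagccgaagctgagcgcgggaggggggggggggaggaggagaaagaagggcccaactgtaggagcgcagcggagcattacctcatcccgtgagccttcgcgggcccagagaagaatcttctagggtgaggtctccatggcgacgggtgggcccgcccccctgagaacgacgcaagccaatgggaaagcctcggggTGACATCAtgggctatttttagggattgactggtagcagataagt
Atf3: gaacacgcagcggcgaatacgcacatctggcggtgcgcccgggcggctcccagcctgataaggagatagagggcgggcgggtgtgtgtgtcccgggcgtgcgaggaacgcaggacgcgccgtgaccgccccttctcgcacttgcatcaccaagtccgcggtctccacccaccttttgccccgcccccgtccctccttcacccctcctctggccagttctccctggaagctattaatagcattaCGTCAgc

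The printed stretches lie at chr12:85473640-85473889 on the forward strand for Fos, and on the reverse strand at chr17:26508520-26508722 for Dusp1, chr4:95052223-95052472 for Jun and chr1:191183334-191183583 for Atf3. The Fos and Jun stretches lie outside their own gene models in GENCODE release M21, although the Jun stretch falls in the antisense gene Junos. The Dusp1 and Atf3 stretches lie inside longer gene models of the same genes, with 0 exon bases for Dusp1 and 7 for Atf3. Fos held the half-site beginning 129 and 66 bases before its start and a TATA box (TATAAA) beginning 33 bases before it. Dusp1 held the full CRE beginning 143 bases before its start, which 1.55% of all 32851 promoter windows of 250 bases in the table hold. Jun held TGACATCA beginning 45 bases before its start, and TGACNTCA is found in 7.49% of the windows. Atf3 held the half-site beginning 7 bases before its start, read on the other strand. Of the 7 members with a promoter used here, 5 held the half-site against 17.8% of all windows and 6 held a GC box (GGGCGG) against 32.7%. Among the same 7, 0 held an AP-1 site (TGANTCA) against 6.75% and 0 held a CArG box, the site of serum response factor, against 1.47%. Egr1, Ier2 and Myc are not in these counts. These letter matches describe the windows and are not shown to be bound.

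The members differed widely in level. Per unit of gene length, Ier2 had the highest median over the 20 mice (13.3 FPKM, the deposited length-scaled unit), followed by Dusp1 at 11.5 FPKM, Junb at 7.83 FPKM and Jun at 4.77 FPKM. Myc (1.73 FPKM), Klf6 (1.30 FPKM), Atf3 (0.783 FPKM), Egr1 (0.493 FPKM) and Fos (0.394 FPKM) were lower, and Fosb was the lowest at 0.0295 FPKM. Neighbours in this order were often not separated. Ier2 exceeded Dusp1 in 11 of 20 mice, Dusp1 exceeded Junb in 11, Myc exceeded Klf6 in 10, Klf6 exceeded Atf3 in 11 and Egr1 exceeded Fos in 11, while Junb exceeded Jun in 17 and Fos exceeded Fosb in 20. Fosb rested on 0 to 34 counts per mouse and was at 0 counts in 6 mice. The other 9 members were counted in every mouse, from 10 counts for Fos upward.

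**Figure D1:**
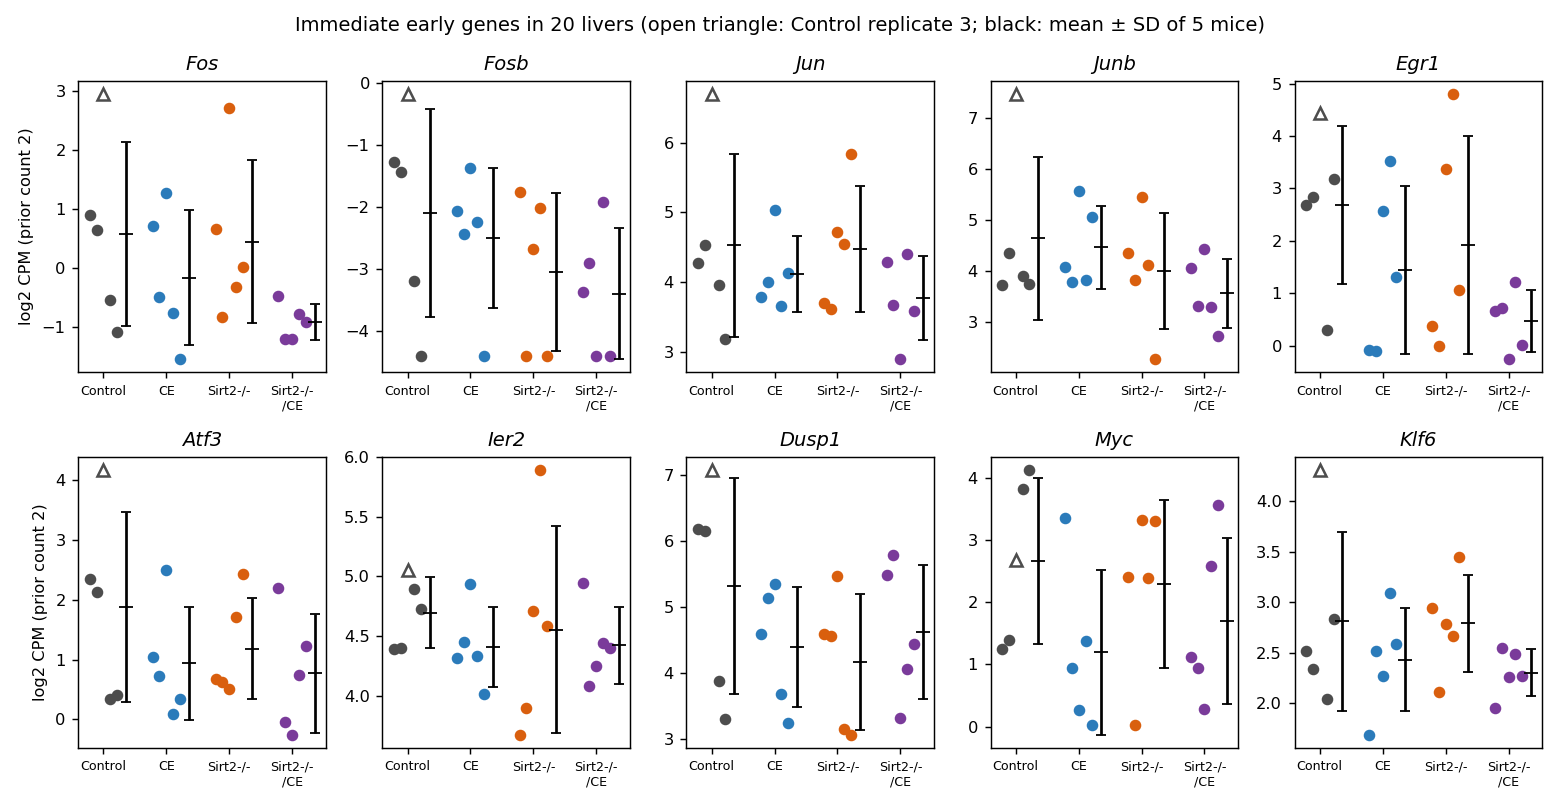
Each point is 1 mouse, plotted as log2 CPM with a prior count of 2 for each of the 10 genes in the 4 groups, and black bars give the mean ± SD of the 5 mice. The open triangle, Control replicate 3, is the highest of 20 mice in 7 panels, and the groups overlap in all 10 panels.

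Fos (ENSMUSG00000021250, chromosome 12, 85473890 to 85477273, forward strand, 4 exons in transcript Fos-201) was the clearest case of a gene that sat low with a few high livers. In Control replicates 1 to 5 it was at 1.80, 1.52, 7.62, 0.640 and 0.425 CPM, and in CE replicates 6 to 10 at 1.59, 0.662, 2.35, 0.537 and 0.296 CPM. In Sirt2-/- replicates 11 to 15 it was at 1.52, 0.513, 6.51, 0.749 and 0.956 CPM, and in Sirt2-/-/CE replicates 16 to 20 at 0.670, 0.387, 0.384, 0.531 and 0.483 CPM. Control replicate 3 and Sirt2-/- replicate 13 lay above all other mice, and the 5 Sirt2-/-/CE mice were close to each other, with a coefficient of variation of 24.1% against 124% in Control, or 60.8% in Control without replicate 3. Fosb, its paralog (ENSMUSG00000003545, chromosome 7, 19302696 to 19310051, reverse strand), ranged from 0 to 0.839 CPM in Control, 0 to 0.339 CPM in CE, 0 to 0.250 CPM in Sirt2-/- and 0 to 0.217 CPM in Sirt2-/-/CE, so that every group held at least 1 mouse with no count.

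Jun (ENSMUSG00000052684, chromosome 4, 95049034 to 95052222, reverse strand, 1 exon), the main partner of Fos in AP-1, was at 19.3, 23.0, 104, 15.5 and 9.07 CPM in Control replicates 1 to 5 and at 13.8, 15.9, 32.8, 12.5 and 17.5 CPM in CE. It was at 12.9, 12.2, 26.2, 23.4 and 57.2 CPM in Sirt2-/- and at 19.4, 12.7, 7.41, 21.2 and 12.01 CPM in Sirt2-/-/CE. Control replicate 3 was the highest mouse and Sirt2-/- replicate 15 the next, while the remaining mice of the 4 groups overlapped. Junb (ENSMUSG00000052837, chromosome 8, 84974484 to 84978718, reverse strand), another AP-1 subunit, was at 13.1, 20.3, 175.5, 14.9 and 13.3 CPM in Control and at 16.7, 13.6, 47.1, 14.1 and 33.3 CPM in CE. It was at 20.4, 13.97, 43.2, 17.2 and 4.78 CPM in Sirt2-/- and at 16.5, 9.84, 21.5, 9.75 and 6.53 CPM in Sirt2-/-/CE. The 2 genes parted in Sirt2-/- replicate 15, the second highest mouse for Jun and the lowest of 20 for Junb. Without Control replicate 3 the Control mean of Junb was 15.4 ± 3.38 CPM (SD, n = 4), and with that mouse it was 47.4 ± 71.7 CPM (n = 5). Exons of Junb share 173 bases with Prdx2 on the other strand, which was at 57.2 to 157.5 CPM, and exons of Jun share 232 bases with Junos. Whether counting used strand is not given in the sources used here, so reads in the shared stretches are uncertain.

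Atf3 (ENSMUSG00000026628, chromosome 1, 191170296 to 191218039, reverse strand) was at 5.02, 4.31, 17.96, 1.22 and 1.28 CPM in Control and at 2.003, 1.60, 5.63, 1.01 and 1.21 CPM in CE. It was at 1.54, 1.49, 1.37, 3.22 and 5.33 CPM in Sirt2-/- and at 4.54, 0.926, 0.792, 1.62 and 2.30 CPM in Sirt2-/-/CE. The mice that were high for Atf3, namely Control replicate 3, CE replicate 8 and Sirt2-/- replicate 15, were also the highest of their groups for Jun. In Sirt2-/-/CE the highest mouse was replicate 16 for Atf3 and replicate 19 for Jun. The lowest mouse of each group lay between 0.792 and 1.37 CPM.

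Egr1 (ENSMUSG00000038418, chromosome 18, 34859823 to 34864984, forward strand), a zinc finger factor that responds to serum and growth factors, was the most variable member. It was at 6.35, 7.05, 21.7, 1.18 and 9.04 CPM in Control and at 0.893, 0.882, 5.91, 11.5 and 2.43 CPM in CE. It was at 1.25, 0.949, 10.3, 27.7 and 2.03 CPM in Sirt2-/- and at 1.54, 1.59, 0.792, 2.27 and 0.967 CPM in Sirt2-/-/CE. The highest mouse was Sirt2-/- replicate 14 and not Control replicate 3, and 0 of 5 Sirt2-/-/CE mice exceeded 2.27 CPM. Its residual SD within groups, 1.54 on the log2 CPM scale, was at the 98.2 percentile of the 15616 genes tested, whose median SD was 0.43. Ier2 (ENSMUSG00000053560, chromosome 8, 84661331 to 84662852, reverse strand) was the steadiest, with an SD of 0.52 at the 59.6 percentile. It ranged from 20.98 to 33.3 CPM in Control, 16.1 to 30.5 CPM in CE, 12.7 to 59.4 CPM in Sirt2-/- and 16.9 to 30.7 CPM in Sirt2-/-/CE, and its highest mouse was again Sirt2-/- replicate 14.

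Klf6 (ENSMUSG00000000078, chromosome 13, 5861482 to 5870394, forward strand), a Krüppel-like factor known from liver injury and regeneration, ranged from 4.07 to 19.8 CPM in Control, 3.19 to 8.49 CPM in CE, 4.28 to 10.8 CPM in Sirt2-/- and 3.82 to 5.79 CPM in Sirt2-/-/CE. The second highest Control mouse was at 7.10 CPM, inside the range of Sirt2-/- and of CE. Myc (ENSMUSG00000022346, chromosome 15, 61985391 to 61990374, forward strand) was highest in other mice than most members in Control and CE. It was at 2.33, 2.59, 6.39, 14.2 and 17.4 CPM in Control and at 10.2, 1.88, 1.16, 2.54 and 0.976 CPM in CE. It was at 5.27, 0.974, 10, 5.17 and 9.85 CPM in Sirt2-/- and at 2.14, 1.87, 1.18, 5.91 and 11.8 CPM in Sirt2-/-/CE. Control replicates 4 and 5 were the highest of 20 for Myc and were low for Fos, Atf3 and Dusp1. In Sirt2-/-, replicates 13 and 15 were the highest for Myc, and each was also the highest of that group for other members, replicate 13 for Fos, Junb and Dusp1 and replicate 15 for Jun, Atf3 and Klf6.

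Dusp1 (ENSMUSG00000024190, chromosome 17, 26505590 to 26562128, reverse strand), the phosphatase of the group, was at 72.6, 71.1, 135, 14.6 and 9.78 CPM in Control and at 24.1, 35.1, 40.6, 12.8 and 9.44 CPM in CE. It was at 24, 23.5, 44.5, 8.84 and 8.34 CPM in Sirt2-/- and at 44.6, 55.5, 9.98, 16.7 and 21.8 CPM in Sirt2-/-/CE. Control replicates 1, 2 and 3 exceeded all 15 mice of the other groups, while Control replicates 4 and 5 lay below all 3 of them and among the mice of the CE and Sirt2-/- groups. Sirt2-/- replicate 14, the highest mouse for Egr1 and Ier2, was the second lowest for Dusp1.

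**Figure D2:**
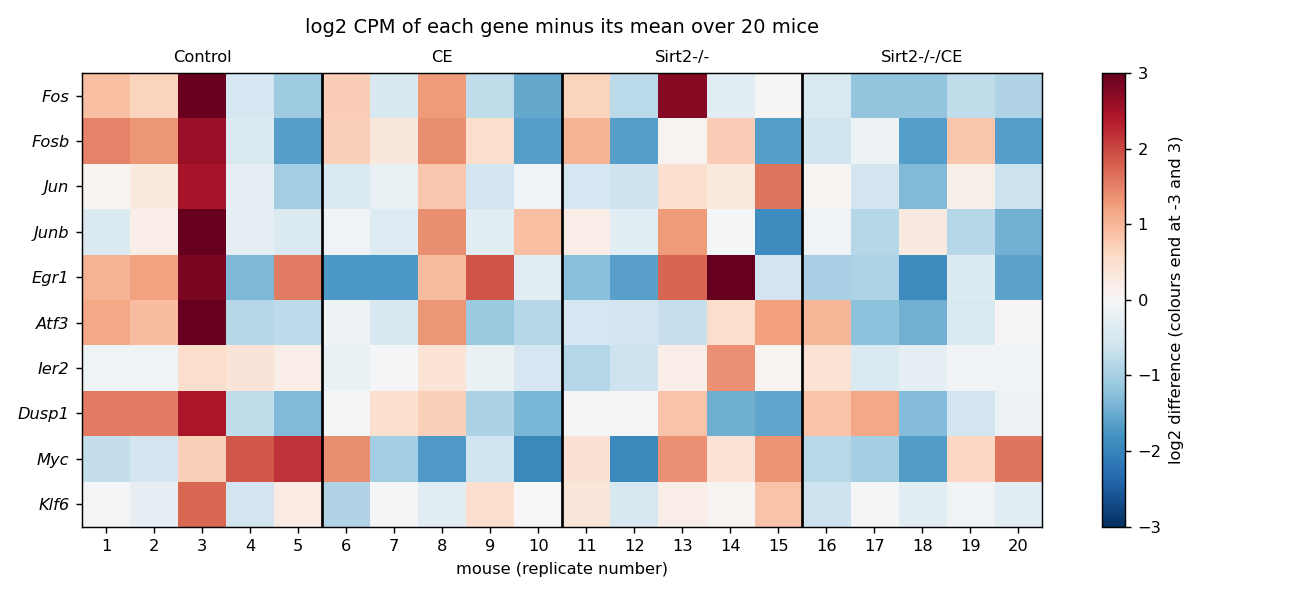
Each square is the log2 CPM of 1 gene (row) in 1 mouse (column, by replicate number) minus the mean of that gene over 20 mice, in red above and blue below the mean, with colours ending at -3 and 3. The column of Control replicate 3 is red in all 10 rows, and Myc is red in Control replicates 4 and 5 where Fos, Atf3 and Dusp1 are blue.

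Spread between mice of 1 group exceeded that of most genes. For 7 of 10 members the residual SD lay between the 91.3 and the 98.2 percentile of all genes tested, with Jun at the 84.2 percentile, Klf6 at the 65.5 percentile and Ier2 as given above. These percentiles were taken over genes of every level and with Control replicate 3 included. By level, Fosb stood at the 0.884 percentile and Fos at the 22.7 percentile. The SD was largest in the Control group for 7 members and in the Sirt2-/- group for 3, and it was smallest in the Sirt2-/-/CE group for 5. With Control replicate 3 left out it was largest in Control for 4 members, in Sirt2-/- for 5 and in CE for 1. By mean log2 CPM, the Control group was the highest of the 4 for 10 of 10 members and the Sirt2-/-/CE group the lowest for 7. By median CPM, which a single mouse moves less, Control was the highest for 7 and Sirt2-/- for 3, namely Jun, Junb and Klf6. Without Control replicate 3, the Control mean was the highest for 5 members, the Sirt2-/- mean for 3 and the CE mean for 2.

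None of these differences passed the test. A single edgeR fit of all 20 libraries (quasi-likelihood F test, which is two-sided, with p-values adjusted by Benjamini and Hochberg over 15616 genes) called 0 of 10 members at an adjusted p under 0.05 in any of 5 pairwise comparisons or in the interaction of genotype and cold, and DESeq2 and limma voom also called 0 in each. As no source says more than that the mice are separate samples of a group, p-values measure the spread between these samples. The comparisons share groups, among them the 5 Control mice, and are not independent of each other.

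In CE against Control, all 10 members had a negative log2 fold change, with a median of -1 against -0.01 over all genes tested, of which 51.0% were negative. The test called 0 members and 0.0064% of all genes, and 0 members had an unadjusted p under 0.05 with a lower level, against 5.22% of all genes. The groups overlapped for every member, and 3.04% of all genes had no overlap. The lowest p belonged to Dusp1, with 24.4 ± 13.5 CPM (SD, n = 5) in CE and 60.7 ± 51.2 CPM in Control, a log2 fold change of -1.31 (SE 0.64, 95% interval -2.68 to 0.05, edgeR adjusted p = 0.482). Atf3 followed with a log2 fold change of -1.38 (SE 0.69, edgeR adjusted p = 0.496) and Myc with -1.35 (SE 0.76, edgeR adjusted p = 0.568). Of the 5 CE mice, 5 lay below the mean CPM of Control for Dusp1 and Atf3 and 4 for Myc, and without Control replicate 3 these numbers were 5, 4 and 4. The remaining 7 log2 fold changes ran from -1.14 for Fos to -0.28 for Ier2. Without Control replicate 3 the median over the members was -0.18, Jun, Junb and Klf6 turned positive, and the values of Dusp1, Atf3 and Myc were -0.78, -0.37 and -1.44.

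In Sirt2-/- against Control, 9 of 10 members had a negative log2 fold change, with a median of -0.41 against 0.02 over all genes. The test called 0 members and 0.89% of all genes. Of the 10 members, only Dusp1 was lower at an unadjusted p under 0.05, as were 6.78% of all genes, and 0 members had groups without overlap against 3.61% of all genes. Dusp1 was at 21.9 ± 14.8 CPM (SD, n = 5) in Sirt2-/-, a log2 fold change of -1.47 (SE 0.65, 95% interval -2.84 to -0.10, edgeR adjusted p = 0.284). All 5 Sirt2-/- mice lay below the mean CPM of Control, and 4 of 5 below the mean without Control replicate 3. Junb had a log2 fold change of -1.25 (SE 0.69, edgeR adjusted p = 0.410) and Atf3 of -1.20 (SE 0.68, edgeR adjusted p = 0.432). The other members ran from -1.47 for Fosb to 0.06 for Ier2. Without Control replicate 3 the median was 0.26 and 5 members changed sign, with Junb at 0.36, Fos at 0.89, Jun at 0.65, Egr1 at 0.52 and Klf6 at 0.39, while Atf3 stood at -0.20 (edgeR adjusted p = 0.944) and Dusp1 at -0.96 (edgeR adjusted p = 0.616).

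**Figure D3:**
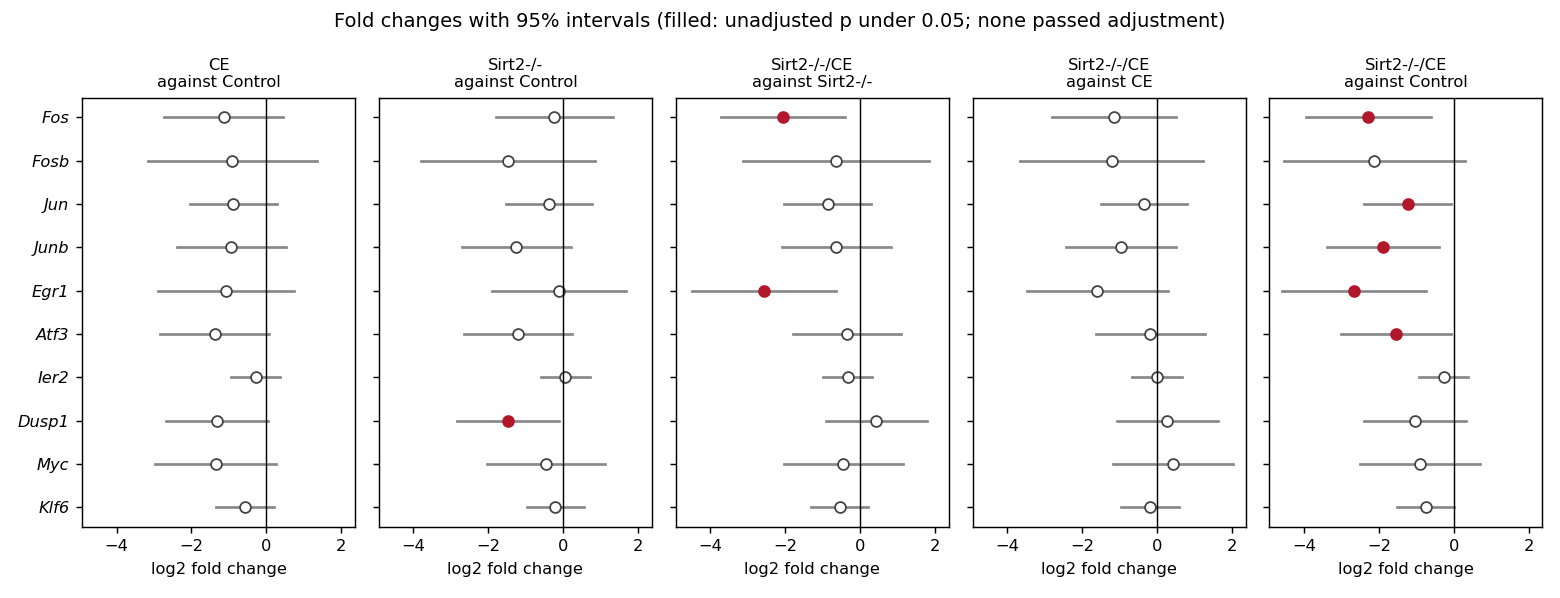
Points are log2 fold changes from edgeR and lines their 95% intervals, for 10 genes (rows) in 5 comparisons (panels), with points filled where the unadjusted p is under 0.05. Filled points number 0, 1, 2, 0 and 5 from left to right and all lie below 0, and none passed the adjustment over all genes.

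Cold in mice without Sirt2, the comparison of Sirt2-/-/CE with Sirt2-/-, takes its fold changes from mice other than Control, while the spread was estimated over all 20 libraries. Here 9 of 10 members had a negative log2 fold change, with a median of -0.59 against 0.01 over all genes. The test called 0 members and 0% of all genes. Fos and Egr1, 2 of 10 members, were lower at an unadjusted p under 0.05, against 3.29% of all genes, and 0 had groups without overlap against 0.743%. Fos was at 0.491 ± 0.118 CPM (SD, n = 5) in Sirt2-/-/CE and 2.05 ± 2.52 CPM in Sirt2-/-, a log2 fold change of -2.05 (SE 0.78, 95% interval -3.71 to -0.39, edgeR adjusted p = 0.586). Egr1 was at 1.43 ± 0.584 CPM and 8.45 ± 11.5 CPM, a log2 fold change of -2.56 (SE 0.91, 95% interval -4.48 to -0.63, edgeR adjusted p = 0.559). All 5 Sirt2-/-/CE mice lay below the Sirt2-/- mean for both genes, and the Sirt2-/- mice with the highest values were replicate 13 for Fos and replicate 14 for Egr1. Leaving out each of the 10 mice in turn moved the value of Fos between -2.30 and -0.93 and that of Egr1 between -2.85 and -1.33. Over the 8 other alternative settings, Fos ran from -2.10 to -1.25 and Egr1 from -2.61 to -0.46. A fit of these 2 groups alone gave -2.05 for Fos and -2.57 for Egr1, with an edgeR adjusted p of 0.966 for each. The other members ran from -0.86 for Jun to 0.44 for Dusp1. Beside these values, 6 of 6 lymphocyte markers had negative log2 fold changes (median -0.71). Positive values were found for 5 of 5 erythroid cell markers (median 0.63), 4 of 4 Kupffer cell markers (0.32) and 5 of 6 sinusoidal endothelial markers (0.18). In these 4 lists 0 markers had an unadjusted p under 0.05, and their part in the levels of the members was not tested.

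In Sirt2-/-/CE against CE, 7 of 10 members had a negative log2 fold change, with a median of -0.27 against 0.02 over all genes. The test called 0 members and 0.0128% of all genes, 0 members were lower at an unadjusted p under 0.05 against 2.2%, and 0 had groups without overlap against 1.22%. The lowest p was that of Egr1, with 4.32 ± 4.49 CPM (SD, n = 5) in CE and a log2 fold change of -1.59 (SE 0.89, 95% interval -3.47 to 0.29, edgeR adjusted p = 0.883). Leaving out each of the 10 mice in turn moved the Egr1 value between -1.86 and -0.82 and the median over the members between -0.59 and -0.14. Over the 8 other alternative settings Egr1 ran from -1.61 to -0.74. The other members ran from -1.21 for Fosb to 0.44 for Myc. Markers of other liver cells also differed here at an unadjusted p under 0.05, though 0 were called: 6 of 6 sinusoidal endothelial markers were higher in Sirt2-/-/CE (median log2 fold change 1.25, summed 57.01 to 88.2 FPKM against 10.01 to 53.2 FPKM in CE), as were 4 of 4 Kupffer cell markers (median 0.79, 103 to 141 FPKM against 29.4 to 135 FPKM). Their part in the levels of the members was not tested.

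Sirt2-/-/CE and Control differed in both genotype and cold. In this comparison all 10 members had a negative log2 fold change, with a median of -1.39 against 0.03 over all genes, of which 45.9% were negative. The test called 0 members and 0.122% of all genes. In all, 5 of 10 members were lower at an unadjusted p under 0.05, against 5.12% of all genes, and 0 had groups without overlap against 2.71%. Egr1 had a log2 fold change of -2.66 (SE 0.91, 95% interval -4.59 to -0.73, edgeR adjusted p = 0.259) from 9.07 ± 7.65 CPM (SD, n = 5) in Control, and Fos of -2.28 (SE 0.79, 95% interval -3.95 to -0.61, edgeR adjusted p = 0.263). Junb had -1.89 (SE 0.70, edgeR adjusted p = 0.292), Atf3 -1.55 (SE 0.69, edgeR adjusted p = 0.406) and Jun -1.23 (SE 0.55, edgeR adjusted p = 0.408). Fosb at -2.12 and Klf6 at -0.75 had edgeR adjusted p of 0.507 and 0.447. All 5 Sirt2-/-/CE mice lay below the mean CPM of Control for 8 members, with Ier2 and Myc at 4 of 5. Against the Control mean without replicate 3 this held for Fos and Egr1, while 4 of 5 mice were below it for Fosb, Atf3, Ier2 and Myc and 3 of 5 for Jun, Junb, Dusp1 and Klf6. Without Control replicate 3 all 10 values stayed negative, but their median was -0.52 and 1 member was lower at an unadjusted p under 0.05. Egr1 was then at -2.05, Fosb at -1.40, Fos at -1.16, Atf3 at -0.54, Junb at -0.27, Jun at -0.20 and Klf6 at -0.15. Beside these values, 4 of 4 Kupffer cell markers and 6 of 6 sinusoidal endothelial markers had positive log2 fold changes (medians 0.68 and 0.56, with 1 and 0 at an unadjusted p under 0.05 and 0 called), and their part in the levels of the members was not tested.

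The interaction, the difference between the response to cold without and with Sirt2, was not called for any member. The test called 0 members and 0% of all genes, and 0 members had an unadjusted p under 0.05 against 8.34% of all genes. Dusp1 had the largest value relative to its error, 1.76 on the log2 scale (SE 0.90, 95% interval -0.16 to 3.67, edgeR adjusted p = 0.620): its log2 fold change with cold was -1.31 in wild-type and 0.44 in knockout mice. The intervals of the members were wide, the narrowest being -0.98 to 0.89 for Ier2. Without Control replicate 3 the median interaction over the members was -0.52, against 0.14 with it, and 4 members changed sign.

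Members were then compared with each other across mice. After the mean of each group was removed from log2 CPM, 39 of the 45 pairs of members had a positive Pearson r over the 20 mice, with a median r of 0.35. The median r of members with the 15606 other genes was -0.01. An r of at least 0.5 was found in 22.2% of pairs of members and in 4.16% of pairs of a member with another gene. Over the 19 mice other than Control replicate 3, 30 of the 45 pairs were positive, the median r was 0.19, and an r of at least 0.5 was found in 11.1% of pairs of members and in 4.63% of pairs with another gene. Jun and Atf3 were the closest pair, with r = 0.838 and Spearman rho = 0.719 (n = 20 mice; permutation p = 0.00011 within groups, 0.00495 after Benjamini-Hochberg adjustment over 45 pairs; rho p = 0.00147). Fos and Dusp1 followed, with r = 0.747 and rho = 0.780 (permutation p = 0.00068, adjusted 0.0153; rho p = 0.00047). Without the 2 mice farthest from the median of the first gene, r was 0.706 for Jun and Atf3 and 0.644 for Fos and Dusp1. No other pair passed the adjustment with Pearson r; Fos and Fosb came next at r = 0.691 (adjusted permutation p = 0.0528) and passed with rho = 0.701 (adjusted permutation p = 0.0475). When Control replicate 3 was left out, r was 0.750 for Jun and Atf3 and 0.683 for Fos and Dusp1, and 0 pairs passed the adjustment. Jun and Junb were at r = 0.431 with all mice and at -0.0917 without Control replicate 3. The lowest r was -0.291, between Dusp1 and Myc. The promoters of both closest pairs are those printed above.

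**Figure D4:**
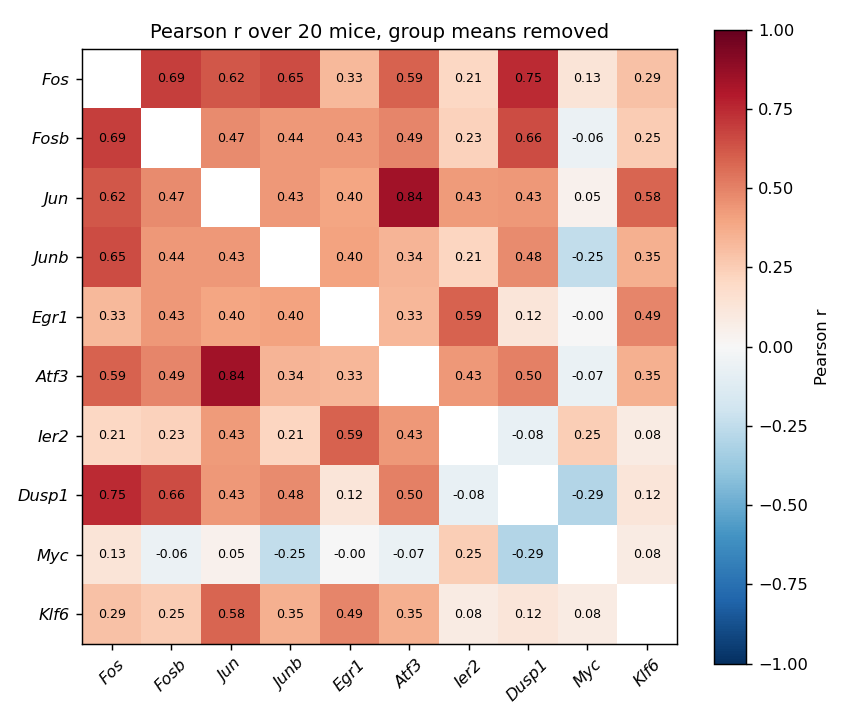
Colours and numbers give Pearson r between 2 genes over 20 mice, on log2 CPM with group means removed, from -1 (blue) to 1 (red). The row of Myc is pale or blue, and the darkest squares join Jun with Atf3 (0.84) and Fos with Dusp1 (0.75).

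**Figure D5:**
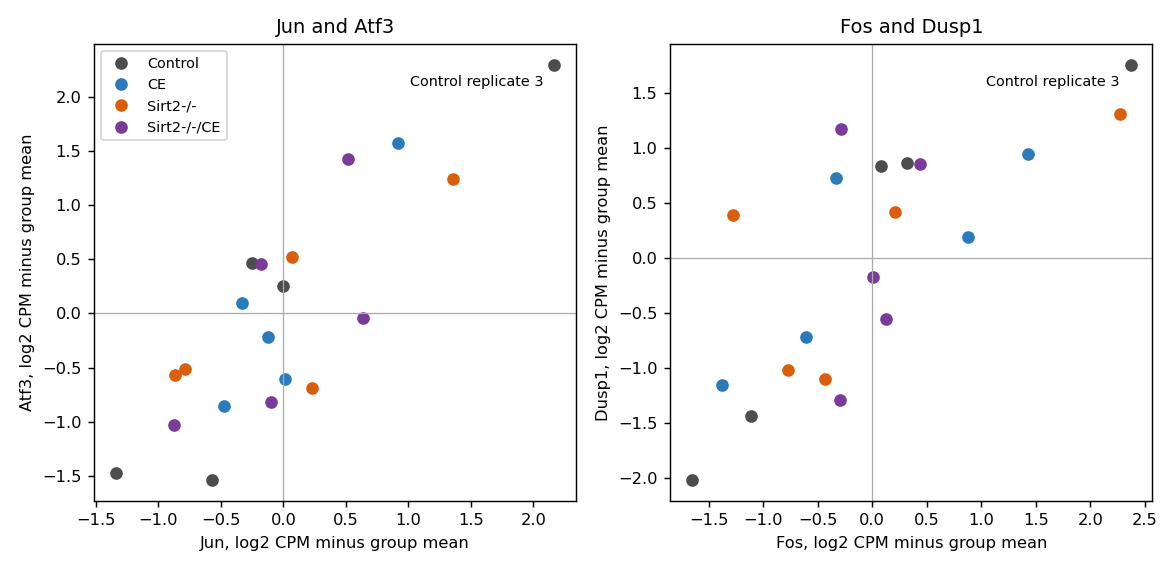
Each point is 1 mouse, coloured by group, at the log2 CPM minus the mean of its group for Jun and Atf3 (left) and Fos and Dusp1 (right). Control replicate 3 lies at the upper right of both panels, and r over the 20 mice is 0.838 and 0.747.

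Outside the group, the gene most like each member was named by its Pearson r over the same 20 mice, with no test. Atf3 was closest to Gadd45b (r = 0.891), a stress-induced gene, and Dusp1 to Sik1 (r = 0.865), a kinase gene induced by cyclic AMP. Both stand on the list of other immediate early genes used here. Myc was closest to Cish (r = 0.894), a cytokine-induced inhibitor. Junb was closest to Map1lc3b (r = 0.885), Egr1 to Ppbp (r = 0.885), Ier2 to 2610002J02Rik (r = 0.902), Fos to Slc22a5 (r = 0.857), Jun to Mob4 (r = 0.851), Klf6 to Csf3r (r = 0.840) and Fosb to Cntf (r = 0.809). Some of these genes were near the floor over the 20 mice, with Ppbp at 0 to 1.14 CPM, Cntf at 0 to 1.49 CPM and Csf3r at 0.475 to 2.07 CPM. For 6 of these 10 genes Control replicate 3 was the highest of the 20 mice, and without it the 10 values of r ran from 0.746 to 0.903. The highest mean r over the 10 members belonged to the metallothionein genes Mt1 (0.562) and Mt2 (0.555), which respond to metals and stress hormones, followed by Pcif1 (0.541), Ppp2r2d (0.520) and Tmco4 (0.520). All 5 were highest in Control replicate 3, and without it their mean r ran from 0.365 for Tmco4 to 0.426 for Pcif1. Mt1 stood at 1075 CPM in Control replicate 3 against 6.31 to 27.4 CPM in the other 4 Control mice, and CE held a further mouse at 704.5 CPM.

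The rest of the pathway was read from lists of related genes. Of 38 other immediate early genes, 34 were tested, and 1 was called in 1 comparison. Klf10, a Krüppel-like factor induced by TGF-beta and by the circadian clock, was at 41.7 ± 35.4 CPM (SD, n = 5) in Control, 12.1 ± 3.60 CPM in CE, 13.8 ± 2.62 CPM in Sirt2-/- and 9.21 ± 1.25 CPM in Sirt2-/-/CE. Its log2 fold change in Sirt2-/-/CE against Control was -2.18 (SE 0.42, edgeR adjusted p = 0.0435), and it was called in 6 of 18 alternatives, with adjusted p from 7.74e-05 to 0.179; without Control replicate 3 the value was -1.57 (adjusted p = 0.147), and the call remained in 2 of the 10 fits that left out 1 mouse. The median over the 34 genes was -0.62 in CE against Control, -0.34 in Sirt2-/- against Control and -0.41 in Sirt2-/-/CE against Control, and 18 of the 34 were highest of the 20 mice in Control replicate 3. It was -0.09 in Sirt2-/-/CE against Sirt2-/-, -0.08 in Sirt2-/-/CE against CE and 0.58 in the interaction. None of the 6 other lists of related genes held a called gene. Of the 10 other AP-1 and small Maf genes, 0 were called in any comparison, with Mafk at 16.9 ± 6.86 CPM in Control and 10.7 ± 2.03 CPM in Sirt2-/- (edgeR adjusted p = 0.245) and Fosl2 at 11.7 ± 9.07 CPM and 6.44 ± 2.30 CPM (edgeR adjusted p = 0.256). Mafg lay the other way, at 49.6 ± 6.53 CPM in Control and 63.9 ± 3.72 CPM in Sirt2-/- (edgeR adjusted p = 0.256), and was named after its values were seen. The Control means without replicate 3 were 13.9 ± 1.23 CPM (n = 4) for Mafk and 7.92 ± 3.52 CPM for Fosl2. Of 7 tested relatives of Dusp1, the other dual-specificity MAP kinase phosphatases, 0 were called, with Dusp5 at 1.38 ± 1.44 CPM in Control and 0.381 ± 0.185 CPM in Sirt2-/- (edgeR adjusted p = 0.152), and at 0.739 ± 0.257 CPM in Control without replicate 3.

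Upstream of the members, the 20 kinases and factors that carry the signal to these promoters had medians between -0.07 and 0.05 in the 5 pairwise comparisons and the interaction, with 0 called. Among them Egfr, the receptor of epidermal growth factor, was at 662 ± 222 CPM (SD, n = 5) in Control, 598.5 ± 275 CPM in CE, 364 ± 160 CPM in Sirt2-/- and 299.9 ± 109 CPM in Sirt2-/-/CE (edgeR adjusted p = 0.260 for Sirt2-/- against Control), and Elk4, a partner of serum response factor, was at 23.96 ± 3.42 CPM in Control and 18.3 ± 5.15 CPM in Sirt2-/- (edgeR adjusted p = 0.319). The 10 partners and rivals of Myc held 0 called genes, with Mycl at 5.95 ± 1.74 CPM in Control and 3.82 ± 0.482 CPM in Sirt2-/- (edgeR adjusted p = 0.299) and Mlx at 30.01 ± 3.82 CPM and 37.2 ± 5.53 CPM (edgeR adjusted p = 0.359). The 9 tested relatives of Klf6 held 0, with Klf1, an erythroid factor, at 3.72 ± 1.01 CPM in Control and 1.62 ± 0.638 CPM in Sirt2-/- (edgeR adjusted p = 0.0584) and Klf11 at 9.78 ± 5.12 CPM (7.83 ± 3.08 CPM without Control replicate 3) and 5.54 ± 2.96 CPM (edgeR adjusted p = 0.437). The 9 genes that respond to glucocorticoids held 0, with a median of 0.40 in CE against Control and 0.01 in Sirt2-/- against Control, and Mt2 at 171 ± 374 CPM in Control and 18.3 ± 13.3 CPM in Sirt2-/- (edgeR adjusted p = 0.352). Control replicate 3 was at 841 CPM, and without it the Control mean of Mt2 was 3.47 ± 1.64 CPM (n = 4), below that of Sirt2-/-.

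Measures of the tissue were set beside these levels. In Control replicate 3 the summed neutrophil markers stood at 10.2 FPKM and the summed lymphocyte markers at 4.10 FPKM, each the highest of the 20 mice, and the hepatocyte markers at 74840 FPKM, the second highest; of the 4 neutrophil markers, Ly6g was at 0 in all mice. Over the groups, the neutrophil markers ranged from 0.447 to 10.2 FPKM in Control, 0.811 to 1.81 FPKM in CE, 0.352 to 2.17 FPKM in Sirt2-/- and 0.248 to 1.22 FPKM in Sirt2-/-/CE. The 6 lymphocyte markers had negative log2 fold changes in all 3 other groups against the shared Control mice, with medians of -1.12 in CE, -0.55 in Sirt2-/- and -1.22 in Sirt2-/-/CE, where 0, 1 and 1 of them had an unadjusted p under 0.05 and 0 were called. The sinusoidal endothelial markers had a median of -0.70 in CE against Control, with 1 of 6 at an unadjusted p under 0.05, and of 0.37 in Sirt2-/- against Control, with 6 of 6 positive and 0 at an unadjusted p under 0.05. Their part in the levels of the members was not tested. The clock score was related to 1 member after adjustment, Dusp1, with r = 0.563 and rho = 0.602 (n = 20 mice, group means removed; permutation p = 0.00400, 0.0400 after adjustment over 10 genes; rho p = 0.0022), and r was 0.427 without the 2 mice of most extreme score. With the score as a covariate in the edgeR fit, 0 members were called, and the median log2 fold change was -0.81 in CE against Control, -0.61 in Sirt2-/- against Control and -1.19 in Sirt2-/-/CE against Control.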

How the data were processed

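The authors sequenced liver messenger RNA and deposited whole-number counts and FPKM per gene; the submitters' processing notes name build mm10, and the aligner, the counter and its use of strand are not given in the sources used here. The members and the gene lists were chosen with earlier results of these data known. The 9 lines without a gene were left out, and 0 columns were left unmapped. Counts were filtered with filterByExpr (minimum count 10, minimum total 15), scaled by TMM and fitted with the quasi-likelihood test of edgeR 4.0.16 (R 4.3.3) over all 20 libraries with group as the only term. The filter kept at least 99.94% of counts. FPKM were used only to describe levels and markers. Members with an unadjusted p under 0.1 are given with their own fold change. In the lists, the genes of lowest p in Sirt2-/- against Control are named. Pairs were tested with 100000 permutations within groups. Alternatives were DESeq2 1.42.0, limma 3.58.1 voom, other scalings and filters, a clock covariate, only the 2 groups compared and leaving out each mouse. No pair of libraries agreed within sampling noise. The edgeR fit was tested on simulated data for Sirt2-/- against Control only.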

Additional observations from a re-analysis of the deposited data

Results flagged for a closer look

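In 10 of 40 sets of 1 gene in 1 group of 5 mice, the highest mouse lay further from the others than the critical value of Dixon's test allows (0.71 of the range of the group). Chance gives about 1 in 20 such sets for independent, normally distributed values, and the share over all genes tested was 7.97%. The members are correlated and share mice, so the 10 sets are not independent. In Control, replicate 3 was that mouse for Fos (7.62 CPM), Jun (104 CPM), Junb (175.5 CPM), Atf3 (17.96 CPM) and Klf6 (19.8 CPM). In CE, replicate 8 stood out for Jun (32.8 CPM) and Atf3 (5.63 CPM), and replicate 6 for Myc (10.2 CPM). In Sirt2-/-, replicate 13 stood out for Fos (6.51 CPM) and replicate 14 for Ier2 (59.4 CPM).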

How the results depend on the processing

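Over 117 alternative settings in the 6 comparisons, 0 of 10 members were called in each. At an unadjusted p under 0.05, the members numbered 0 to 3 over these settings in CE against Control (0 as reported), 0 to 3 in Sirt2-/- against Control (1), 0 to 3 in Sirt2-/-/CE against Sirt2-/- (2), 0 to 2 in Sirt2-/-/CE against CE (0), 1 to 7 in Sirt2-/-/CE against Control (5) and 0 to 1 in the interaction (0). Over all members, 74 alternative values had the opposite sign, of which 37 belonged to the interaction, 16 to Sirt2-/- against Control, 13 to Sirt2-/-/CE against CE, 4 each to CE against Control and Sirt2-/-/CE against Sirt2-/-, and 0 to Sirt2-/-/CE against Control. Among the 17 fold changes given by themselves, which were chosen for a low p and of which 0 passed the threshold, 1 was reversed: Junb in Sirt2-/- against Control was 0.36 without Control replicate 3, with a range of -1.75 to 0.36 over the mice left out. The number of pairs of members past the adjustment was 2, became 6 with the clock score regressed out, and ran from 0 to 4 over the mice left out; the cause was not tested. Over all genes, calls ranged over the alternatives, mice left out included, from 0 to 540 in CE against Control (1 as reported), 0 to 906 in Sirt2-/- against Control (139), 0 to 7 in Sirt2-/-/CE against Sirt2-/- (0), 0 to 31 in Sirt2-/-/CE against CE (2), 0 to 340 in Sirt2-/-/CE against Control (19) and 0 to 41 in the interaction (0). Scaling by library size alone moved the median log2 fold change of all genes from 0.017 to 0.158 in Sirt2-/- against Control. No paired analysis was possible because the replicate numbers run from 1 to 20 and no 2 groups share one. Fosb, at 0 to 34 counts, is limited by depth.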
